A study of Homo sapiens with 6 samples.

Results

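The genes described here are 10 keratins of breast epithelium, taken by symbol from a count table of 26334 genes measured upon silencing of WDR5, the core subunit of histone H3 lysine 4 methyltransferase complexes. They were read in 3 sets: the basal keratins KRT5 and KRT14, the stress keratins KRT6A, KRT6B, KRT16 and KRT17, and the luminal keratins KRT7, KRT8, KRT18 and KRT19. All 10 genes were in the table and passed the filter on low counts. The cells were MCF10DCIS.com, a human breast cancer line of basal-like character that forms lesions resembling ductal carcinoma in situ when grafted. One group of 3 samples carried a control hairpin against luciferase (shLuc) and the other group of 3 a hairpin against WDR5 (shWDR5), each from a lentiviral vector that also encodes TagRFP and puromycin resistance. Both groups were selected with 3 µg/ml of puromycin and grown in DMEM/F12 with 5% horse serum, 2 mM L-glutamine, 10 mM HEPES, penicillin and streptomycin and 1.05 mM CaCl2. This is a single line, the study's methods describe pooled hairpins against WDR5 for infected cells while the labels of these samples name no hairpin number, and the time from infection to harvest is not given in the sources used here. The labels do not say that the 3 samples of a group came from separate cultures, so the p-values below measure the spread between these samples, which may be technical.

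Keratins build the intermediate filaments of epithelial cells. Each filament needs a type I (acidic) and a type II (basic) chain, and the usual partners are KRT5 with KRT14 in basal cells, KRT6 with KRT16 or KRT17 in wounded, stressed or fast-growing epithelium, and KRT8 with KRT18 in simple epithelium. In the mammary gland, the inner luminal cells carry KRT7, KRT8, KRT18 and KRT19, and the outer basal or myoepithelial cells carry KRT5, KRT14 and KRT17. The comparison asked how the level of each of these transcripts differed between shWDR5 and shLuc cells.

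Libraries held between 38218108 and 57640167 counts. WDR5 itself stood at 52.6, 48.5 and 51.3 CPM (the count scaled to a common library size) in shLuc and at 23.4, 24.4 and 20.8 CPM in shWDR5, a log2 fold change of -1.15 ± 0.07 (SE; edgeR quasi-likelihood test, adjusted p = 8.67e-07). Of 16117 genes tested, 56.5% passed an adjusted p of 0.05, with 26.6% higher and 29.9% lower in shWDR5, so a call by itself was common in this comparison and the sizes of the changes carry most of the description. The median log2 fold change over all genes was -0.01, and the 5th and 95th percentiles were -0.93 and 1.03. All 9 markers of a breast epithelial line had at least 10 counts in a library, with a summed level of 12510 to 13910 CPM in shLuc and 20370 to 23560 CPM in shWDR5, and 4 of the 9 are members here (KRT5, KRT14, KRT8 and KRT18). Markers of other cells were low. Of 8 fibroblast markers, 5 (COL1A2, COL3A1, DCN, LUM and THY1) had fewer than 10 counts in every library and LUM had 0, and the list summed to between 22.1 and 23.9 CPM in shLuc and 14.99 and 18.1 CPM in shWDR5, nearly all of it COL1A1. The part of these levels in the results below was not tested. The leukocyte list summed to between 13.1 and 15.6 CPM in shLuc and 13.1 and 15.1 CPM in shWDR5, with CD3E at 0. The endothelial list summed to between 7.81 and 8.45 CPM in shLuc and 5.31 and 6.02 CPM in shWDR5.

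Several of these keratins are close copies of one another, which bears on how far their reads can be told apart. In GENCODE release 29 transcripts (GRCh38), the coding sequences of KRT6A and KRT6B are both 1695 bases long and differ at 43 of them (97.5% identity), and their longest stretch without a difference is 269 bases. The 60 coding bases below, positions 663 to 722 counted from the start codon, are the stretch where KRT6A, KRT6B and their neighbour KRT6C differ most, and they are shown because reads over such places are what separates these genes. Capitals mark the 9 positions at which the 3 genes are not all alike.
KRT6A: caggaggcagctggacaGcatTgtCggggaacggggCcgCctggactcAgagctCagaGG
KRT6B: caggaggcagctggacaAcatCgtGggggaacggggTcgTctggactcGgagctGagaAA
KRT6C: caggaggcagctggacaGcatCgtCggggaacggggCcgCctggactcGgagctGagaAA

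Among the type I genes, KRT14 and KRT16 were 85.2% identical over their coding sequences and KRT14 and KRT17 78.2%. Their most alike 60 bases, starting at coding position 352 in KRT14, 358 in KRT16 and 259 in KRT17, encode the conserved start of the rod domain and hold a single difference, in capitals.
KRT14: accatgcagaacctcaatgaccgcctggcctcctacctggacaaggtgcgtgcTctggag
KRT16: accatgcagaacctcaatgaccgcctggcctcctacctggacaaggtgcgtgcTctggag
KRT17: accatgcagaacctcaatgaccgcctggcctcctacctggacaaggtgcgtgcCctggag

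A window of 50 bases was taken at every position of each gene's transcript and looked up in the transcripts of all other genes. Such windows were shared for 39.1% of KRT6A and 47.1% of KRT6B, mostly with each other and with KRT6C, for 23.8% of KRT14, 22.0% of KRT16 and 17.4% of KRT17, and for 41.3% of KRT8 and 31.8% of KRT18, mostly with their processed pseudogenes. The share was small for KRT5 (3.99%), KRT19 (1.79%) and KRT7 (1.00%). How reads with several matches were counted is not given in the sources used here, so the levels of the KRT6, KRT14, KRT16, KRT17, KRT8 and KRT18 genes are less certain than those of KRT5, KRT7 and KRT19. KRT8 and KRT18 also share 270 exon bases on opposite strands in the table's gene models, and the kit as described does not mark strand.

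The basal keratins were both upregulated in shWDR5 cells. KRT5 (hg19 chr12:52908359-52914243, minus strand), the type II chain of basal cells, stood at 862, 800 and 798 CPM in the 3 shLuc samples and at 1648, 1485 and 1506 CPM in the 3 shWDR5 samples. Its partner KRT14 (chr17:39738531-39743147, minus strand) stood at 77.9, 73.8 and 64.7 CPM in shLuc and at 194, 158 and 176 CPM in shWDR5. Every shWDR5 sample was above every shLuc sample for both genes. KRT5 rose 1.89-fold (log2 fold change 0.91 ± 0.06, SE; edgeR adjusted p = 9.47e-07) and KRT14 rose 2.44-fold (1.29 ± 0.09; edgeR adjusted p = 1.36e-06). In bulk RNA, a larger share of basal-type cells and more keratin RNA per cell cannot be told apart.

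The promoter of KRT5 is shown because it is the basal member whose sequence was matched (2 of the 10 members, KRT5 and KRT8, had an entry in the RefSeq promoter table used). The 250 bases before the annotated start lie on GRCh38.p14 at chr12:52520395-52520644, minus strand. Capitals mark a TATA-like ATAAAA that begins at position -29 from the start.
KRT5: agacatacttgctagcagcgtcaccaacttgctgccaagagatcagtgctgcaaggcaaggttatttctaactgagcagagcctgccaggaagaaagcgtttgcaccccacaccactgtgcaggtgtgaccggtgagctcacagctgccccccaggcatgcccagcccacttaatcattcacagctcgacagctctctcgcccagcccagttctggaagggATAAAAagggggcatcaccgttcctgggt

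ATAAAA occurred on either strand in 15.99% of 35116 promoter windows of 300 bases, 250 before and 50 after the start. TGANTCA (the AP-1 motif, in 7.71% of windows), GCCNNNGGC (AP-2, 23.2%) and GGGCGG (Sp1, 44.95%) had no match on either strand in the KRT5 window or in that of KRT8, which also lacked ATAAAA. The KRT8 window lies at chr12:52926420-52926719 on GRCh38.p14, minus strand, around a single annotated start. Any other start within the KRT8 gene model was not examined. These matches describe the letters in 2 windows only, and not the whole promoter of either gene.

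The 4 stress keratins were all upregulated as well. KRT6A (chr12:52880958-52887181, minus strand), a type II chain induced at wound edges, stood at 72.1, 64.7 and 65.1 CPM in shLuc and at 273, 209 and 236 CPM in shWDR5. Its near copy KRT6B (chr12:52840435-52845910, minus strand) stood at 880, 788 and 794 CPM in shLuc and at 1775, 1521 and 1531 CPM in shWDR5. The lowest shWDR5 value was far above the highest shLuc value in each case. KRT6A rose 3.56-fold (log2 fold change 1.83 ± 0.09, SE; edgeR adjusted p = 2.52e-07) and KRT6B 1.96-fold (0.97 ± 0.07; edgeR adjusted p = 2.33e-06).

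Their type I partners moved the same way. KRT16 (chr17:39766031-39769079, minus strand), which pairs with KRT6 in activated keratinocytes, stood at 186, 166 and 173 CPM in shLuc and at 488, 371 and 441 CPM in shWDR5. KRT17 (chr17:39775692-39780882, minus strand), found both in basal cells and in stressed epithelium, stood at 2259, 2154 and 2065 CPM in shLuc and at 4442, 3816 and 4134 CPM in shWDR5. Neither gene had overlapping groups. KRT16 rose 2.48-fold (log2 fold change 1.31 ± 0.09, SE; edgeR adjusted p = 1.60e-06) and KRT17 1.91-fold (0.94 ± 0.07; edgeR adjusted p = 1.52e-06).

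The luminal keratins did not move as a set. KRT8 (chr12:53290971-53343650, minus strand), the type II chain of simple epithelium, stood at 2112, 1983 and 1977 CPM in shLuc and at 2196, 1979 and 2056 CPM in shWDR5. Its partner KRT18 (chr12:53342655-53346685, plus strand) stood at 1443, 1353 and 1305 CPM in shLuc and at 1324, 1221 and 1238 CPM in shWDR5. The groups overlapped for both genes. The log2 fold change was 0.04 ± 0.06 (SE) for KRT8 (edgeR adjusted p = 0.607) and -0.12 ± 0.06 for KRT18 (edgeR adjusted p = 0.110). KRT18 was called lower, at -0.17, when libraries were scaled by their totals alone (edgeR adjusted p = 0.0189), and the sign of KRT8 turned to -0.02 under that scaling.

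KRT7 (chr12:52626954-52642709, plus strand), a type II chain of ductal and glandular cells, stood at 1614, 1467 and 1505 CPM in shLuc and at 2029, 1850 and 1855 CPM in shWDR5. The groups did not overlap, and the rise was 1.25-fold (log2 fold change 0.32 ± 0.06, SE; edgeR adjusted p = 9.45e-04). KRT19 (chr17:39679869-39684641, minus strand), a type I chain typical of luminal cells, was barely present in this line, with 61, 52 and 55 counts in shLuc and 233, 249 and 210 counts in shWDR5. Its levels were 1.23, 1.34 and 1.36 CPM in shLuc against 5.03, 4.38 and 4.63 CPM in shWDR5, a 3.57-fold rise (1.83 ± 0.12; edgeR adjusted p = 8.24e-07). The log2 fold change was as large as that of KRT6A, from a far lower level.

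By count, both basal keratins, all 4 stress keratins and 2 of the 4 luminal keratins (KRT7 and KRT19) were called higher, beside 26.6% of all genes. The median log2 fold change was 1.10 for the basal set, 1.14 for the stress set and 0.18 for the luminal set, against -0.01 for all genes. The 3 values of each group did not overlap for 8 of the 10 keratins, beside 62.3% of all genes tested. A stricter rule with the thresholds the study states (adjusted p under 0.05, an absolute log2 fold change of at least 0.6 and over 0.5 RPKM, which is the FPKM used here) called 7.90% of all genes higher. It kept all 6 basal and stress keratins and KRT19, and lost KRT7. The basal and stress keratins lay between percentiles 93.9 (KRT5) and 98.4 (KRT6A) of the log2 fold changes of all genes. Of the luminal set, KRT19 lay at 98.4, level with KRT6A, KRT7 at 77.2, KRT8 at 54.4 and KRT18 at 40.6 on the same scale.

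The keratins moved together among libraries of a group. The shWDR5 replicate 1 library gave the highest CPM of its group for 10 of the 10 keratins and shWDR5 replicate 2 the lowest for 10 of 10, although these libraries were the highest and lowest of their group for 44.8% and 28.8% of all genes. In shLuc, replicate 1 was highest for 9 of the 10, beside 37.4% of all genes. The libraries differed in depth too (shWDR5 replicate 2 was the deepest of the 6), and the part of depth in this order was not tested. With any single library left out, 8 of the 10 members were called higher.

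Compared per unit of transcript length (FPKM, fragments scaled to gene length and library size), KRT17 was the most abundant of the 10 in shLuc, at 1372 ± 61.5 FPKM (SD, n = 3). KRT7 (898 ± 44.8), KRT8 (894 ± 33.7) and KRT18 (890 ± 45.6) followed with overlapping ranges, and then KRT6B (360 ± 22.7) and KRT5 (356 ± 15.9), whose ranges also overlapped. KRT16 stood at 102 ± 6.09 FPKM, KRT14 at 44.1 ± 4.11, KRT6A at 27.5 ± 1.69 and KRT19 at 0.893 ± 0.047. The order of the 10 genes was the same in shWDR5, where KRT17 reached 2624 ± 199 FPKM. There KRT7 (1123 ± 60.1), KRT8 (917 ± 48.5) and KRT18 (821 ± 36.1) no longer overlapped. KRT6B (705 ± 63.0) and KRT5 (672 ± 38.5) still did, and KRT14 (108 ± 11) now overlapped with KRT6A (97.7 ± 13).

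**Figure D1:**
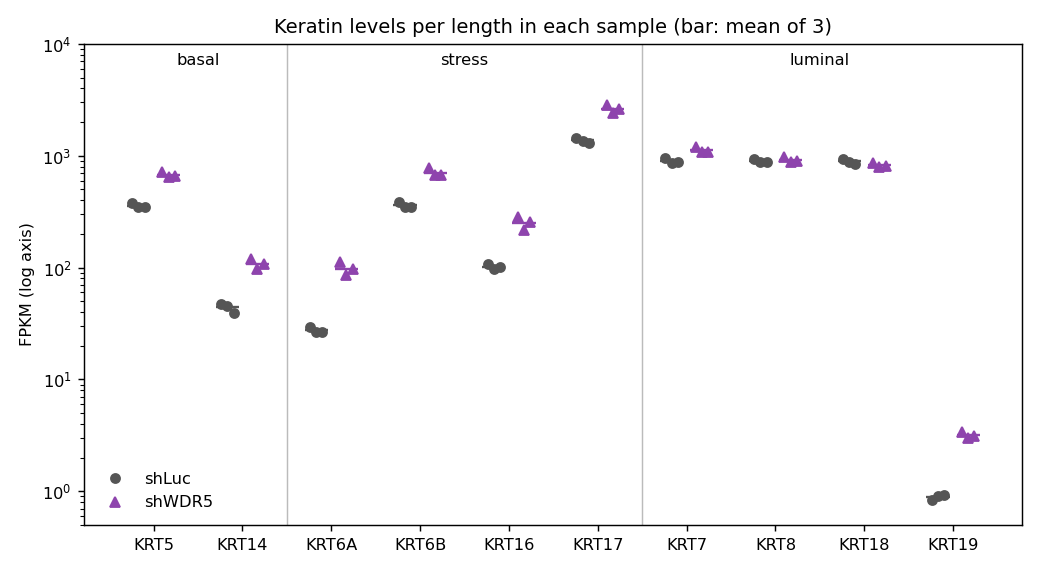
FPKM of the 10 keratins in each of the 6 samples, on a log axis, with shLuc samples as circles, shWDR5 samples as triangles and the mean of 3 as a short bar, basal, stress and luminal sets apart. The shWDR5 points sit above the shLuc points for every basal and stress keratin and for KRT7 and KRT19, and the groups overlap for KRT8 and KRT18.

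Summed, the 10 keratins took 0.969%, 0.898% and 0.898% of all counts in the shLuc samples and 1.40%, 1.24% and 1.296% in the shWDR5 samples. The mean share was 0.921% ± 0.041 (SD, n = 3) in shLuc and 1.31% ± 0.077 (SD, n = 3) in shWDR5, a difference of 0.390 percentage points (two-sided exact permutation test, p = 0.1, the smallest value that 3 samples against 3 can give). The make-up of the 10 shifted. Basal and stress keratins made up 45.8%, 46.0% and 45.5% of the summed FPKM in shLuc and 61.5%, 59.97% and 61.1% in shWDR5. KRT8 and KRT18 together went from 36.0%, 36.2% and 36.0% to 23.3%, 24.2% and 23.7%. Since KRT8 and KRT18 did not pass the test themselves, this is a change of shares in a larger sum.

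**Figure D2:**
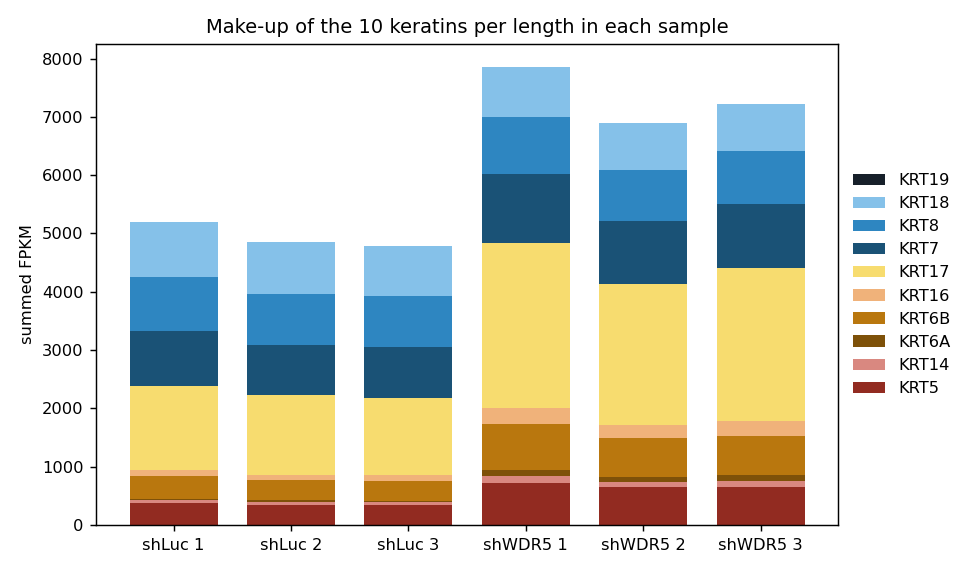
Summed FPKM of the 10 keratins in each sample, stacked by gene from basal (bottom) through stress to luminal (top). The stacks reach between 4781 and 5202 FPKM in shLuc and between 6893 and 7858 FPKM in shWDR5, and the basal and stress genes hold 45.5% to 46.0% of the stack in shLuc and 59.97% to 61.5% in shWDR5.

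Ratios of 2 genes within a library do not depend on the scaling between libraries. Per length, KRT5 over KRT8, a type II basal to luminal ratio, was 0.402, 0.397 and 0.397 in shLuc and 0.738, 0.738 and 0.720 in shWDR5. KRT14 over KRT18, the type I counterpart, was 0.051, 0.051 and 0.047 in shLuc and 0.138, 0.122 and 0.133 in shWDR5. Both basal to luminal ratios were higher in every shWDR5 sample.

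Partners within a set did not keep their proportions either. KRT5 over KRT14 was 8.11 ± 0.569 (SD, n = 3) in shLuc and 6.26 ± 0.354 in shWDR5. KRT6A over its near copy KRT6B was 0.0764 ± 0.00010 in shLuc and 0.138 ± 0.0089 in shWDR5. KRT17 over KRT16 was 13.5 ± 0.601 and 10.5 ± 0.686. In each of these pairs the less abundant gene in shLuc gained on the more abundant one. KRT8 over KRT18 went from 1.00 ± 0.020 to 1.12 ± 0.015, and KRT7 over KRT8 from 1.00 ± 0.018 to 1.22 ± 0.022. Type II over type I chains, summed over the 10 genes, went from 1.05 ± 0.025 to 0.923 ± 0.025. Over all keratin genes tested, which include the abundant type I gene KRT15, the ratio was lower in both groups. It went from 0.763 ± 0.013 in shLuc to 0.676 ± 0.017 in shWDR5. Groups did not overlap in any of the 10 ratios computed, and each gave p = 0.1 in a two-sided exact permutation test (0.1 after Benjamini-Hochberg adjustment over the 10), the smallest value this design allows.

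The table held 45 other keratin genes, hair keratins included, of which 13 passed the filter, 5 were called higher and 4 lower, beside 26.6% and 29.9% of all genes. Among them was KRT15, a type I chain of basal cells, the most abundant keratin in shLuc but below KRT17 in shWDR5, at 1682 ± 63.9 FPKM (SD, n = 3) in shLuc and 1954 ± 59.4 FPKM in shWDR5. It rose 1.16-fold (log2 fold change 0.22 ± 0.05, SE; edgeR adjusted p = 0.00518). KRT15 therefore changed little beside KRT5 and KRT14.

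KRT75, KRT9, KRT6C and KRT4 were higher by 2.12, 1.61, 1.48 and 1.27 on the log2 scale, all from group means under 10 CPM in both groups. The calls in the other direction included KRT81, a type II hair-type keratin known from breast cancer lines, which went from 1381, 1215 and 1111 CPM in shLuc to 816, 757 and 694 CPM in shWDR5 (log2 fold change -0.71 ± 0.08, SE; edgeR adjusted p = 5.21e-05). KRT23, a type I epithelial keratin, went from 307, 301 and 262 CPM to 116.7, 135 and 118 CPM (-1.24 ± 0.08; edgeR adjusted p = 8.70e-07). KRT80 was lower by -0.64 ± 0.07 and the hair keratin KRT86 by -0.68 ± 0.13 (log2 fold change ± SE). Keratins as a family therefore moved in both directions in these cells. KRT83 and KRT85, named after their values were seen, stood at 2.53, 0.581 and 3.15 CPM and at 2.59, 0.088 and 1.81 CPM in the 3 shWDR5 libraries, lowest in replicate 2 for both, and neither was called (edgeR adjusted p = 0.128 for each).

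Keratin genes lie in 2 clusters, and KRT18 is the type I gene that sits in the type II cluster, next to KRT8. Along chromosome 12, the 5 neighbours KRT75, KRT6B, KRT6C, KRT6A and KRT5 were all called higher, beside 26.6% of all genes. They fill 96.4 kb and are the only rows of the table there. KRT81, KRT86, KRT83 and KRT85 on one side had negative log2 fold changes, of which KRT81 and KRT86 were called. Beyond KRT81, KRT7 was called higher (log2 fold change 0.32) and KRT80 lower (-0.64). On the other side, KRT4, between KRT5 and KRT8, was called higher (1.27). KRT8 and KRT18, at the other end of the cluster, were not called. Along chromosome 17, the 6 keratin genes from KRT15 through KRT19, KRT9, KRT14 and KRT16 to KRT17, within 110.9 kb, were also all called higher. A microRNA gene and a noncoding RNA gene lie in the same stretch. On chromosome 12, KRT84 and KRT82, between KRT85 and KRT75, did not pass the filter. Nor did the keratin genes from KRT71 to KRT3, between KRT5 and KRT4. The calls therefore give no exact edge to that stretch. Both stretches were drawn around genes called higher and were not part of the planned comparisons. That every keratin in them was called higher therefore follows from the choice of ends. KRT13, next to KRT15, was not called (log2 fold change -0.33 ± 0.16, SE; edgeR adjusted p = 0.113), nor was KRT10 farther along (0.21 ± 0.16; edgeR adjusted p = 0.294). KRT23, between KRT10 and KRT13, was called lower (log2 fold change -1.24).

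**Figure D3:**
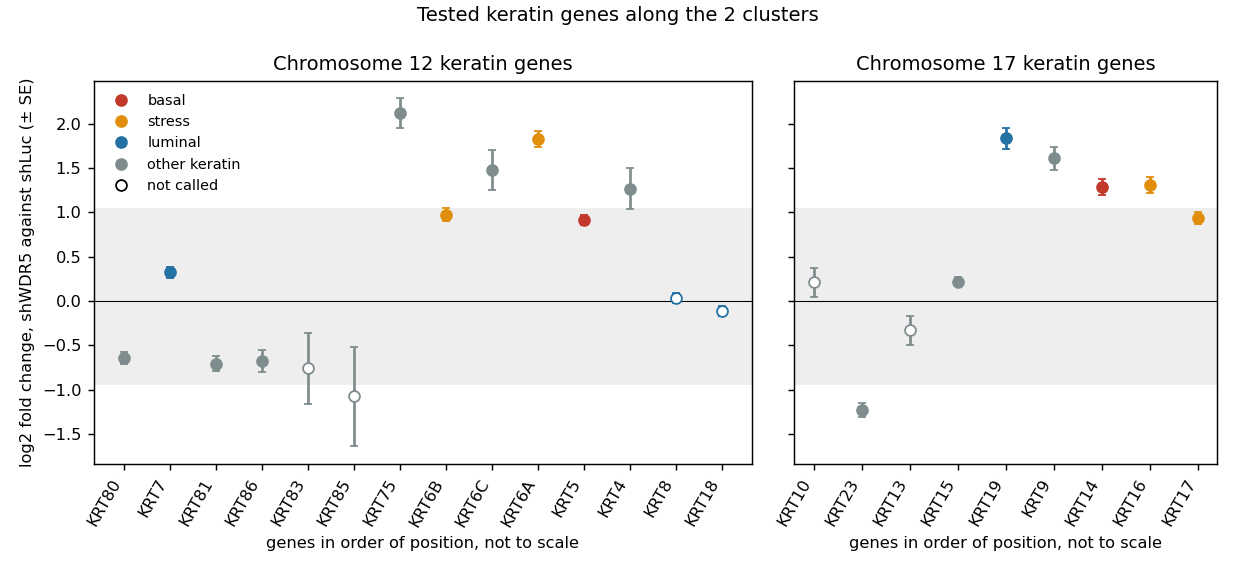
Log2 fold change (shWDR5 against shLuc, ± SE) of the 23 keratin genes tested, in order of position along chromosome 12 (left) and chromosome 17 (right), coloured by set, with open points for genes not called and a grey band from the 5th to the 95th percentile of all genes (-0.93 to 1.03). The genes from KRT75 to KRT5 and from KRT15 to KRT17 all lie above 0, and KRT8 and KRT18 lie near it.

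Counts assigned to the pseudogenes with a row in the table were small beside those of their parents. Others that share many windows, such as KRT8P3, KRT18P11 and KRT17P1, had no row. Their part in the counts of KRT8, KRT18 and KRT17 was not tested. KRT16P3 had 40, 31 and 23 counts in shLuc and 93, 74 and 78 counts in shWDR5, and KRT16P1 had 22, 18 and 11 counts against 50, 36 and 46. Both were higher in each shWDR5 library, as KRT16 was. KRT16P2 had 61, 54 and 49 counts in shLuc and 50, 51 and 44 counts in shWDR5, and so did not follow them. KRT6C, with 18, 19 and 24 counts in shLuc and 76, 67 and 54 counts in shWDR5, stood beside 43493 counts of KRT6B in shLuc replicate 1. KRT8P41, KRT17P5 and KRT18P55 had at most 24, 11 and 10 counts in a library, and KRT19P2 had 0.

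Of 17 genes for proteins that anchor, link or modify keratin filaments, 11 were called higher, 4 lower and 2 were not called, beside 26.6% of all genes higher and 29.9% lower, with a median log2 fold change of 0.37 against -0.01 for all genes. COL17A1, the transmembrane collagen of hemidesmosomes, went from 457 ± 7.53 CPM (SD, n = 3) in shLuc to 971 ± 45.6 CPM in shWDR5 (log2 fold change 1.09 ± 0.05, SE; edgeR adjusted p = 2.03e-07). PLEC, which encodes the plectin linker between keratin and integrin, went from 1688 ± 109 to 2992 ± 129 CPM (0.83 ± 0.06; edgeR adjusted p = 2.26e-06). PKP1, a plakophilin of desmosomes, had the highest log2 fold change of the list (2.41 ± 0.43) at only 0.06 and 0.34 CPM. It had 3, 1 and 4 counts in shLuc and 19, 19 and 13 in shWDR5. It thus passed the filter on low counts only through the shWDR5 samples, and its call carries little weight. With a mean of at least 1 CPM required, 10 genes of the list were called higher.

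The 4 lower calls included other plakin and desmosomal genes. PPL (periplakin) went from 323 ± 15.05 to 192 ± 5.19 CPM (SD, n = 3) and EVPL (envoplakin) from 138 ± 3.39 to 89.5 ± 4.01 CPM, log2 fold changes of -0.75 ± 0.05 and -0.63 ± 0.06 (SE; edgeR adjusted p = 1.93e-06 and 6.50e-06). Both proteins belong to the cornified envelope of squamous cells. PKP2, another plakophilin, was lower by -0.49 ± 0.06.

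Among the other intermediate filament genes, 7 of 13 passed the filter, 1 was called higher and 4 lower, beside 26.6% and 29.9% of all genes, and the median log2 fold change was -0.27. The gene that rose was VIM, the vimentin chain of mesenchymal cells, also present in many basal-like lines, from 386 ± 40.4 to 892 ± 26.6 CPM (SD, n = 3; log2 fold change 1.21 ± 0.07, SE; edgeR adjusted p = 7.08e-07). VIM and the basal keratins were thus both higher in shWDR5. For vimentin protein, the study reports only a partial effect of the knockdown in this line. The nuclear lamin genes were lower, LMNB1 by -0.84 ± 0.06 and LMNB2 by -0.20 ± 0.05 (log2 fold change ± SE), and so was SYNM, the synemin gene, by -0.53 ± 0.08.

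Of 24 genes for transcription factors and signals known to act on keratin genes, 11 were called higher, 7 lower and 6 were not called, beside 26.6% of all genes higher and 29.9% lower, with a median log2 fold change of 0.24 against -0.01 for all genes. The list includes TGFB1, SNAI2 and ZEB1, which the study itself examined. Their directions are therefore not independent evidence, and those of SNAI2 and ZEB1 differ from the study's, as given below. TP63, the basal epithelial factor that acts on KRT5 and KRT14, went from 96.6 ± 8.40 to 129 ± 13.03 CPM (SD, n = 3; log2 fold change 0.42 ± 0.08, SE; edgeR adjusted p = 0.00170). SNAI2, a factor of basal cells and of epithelial-to-mesenchymal transition, went from 17.3 ± 0.906 to 41.9 ± 4.08 CPM (1.28 ± 0.08; edgeR adjusted p = 9.35e-07). The RNA of both basal factors was higher together with that of the basal keratins. For SNAI2 protein, the study reports a reduction in shWDR5 cells of this line, the opposite direction to the RNA here.

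ZEB1 was higher by 0.78 ± 0.17 and JUN, an AP-1 subunit, by 0.47 ± 0.11 on the log2 scale. For SNAI2 and ZEB1 RNA, the study describes lower levels in most of its shWDR5 patient-derived xenografts. Those are other samples, and the direction is opposite to the one here. TFAP2C, an AP-2 factor of luminal cells, was lower by -0.87 ± 0.06, TGFB1 by -0.70 ± 0.08 and SP1 by -0.67 ± 0.05. For TGFB1 RNA, the study reports a reduction in this line, the same direction as here. KLF4 (0.26 ± 0.12; edgeR adjusted p = 0.0931) and KLF5 (0.11 ± 0.14; edgeR adjusted p = 0.538) did not pass the test.

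Among 9457 genes with a mean of at least 10 CPM, the ones whose log2 CPM followed the summed CPM of KRT5 and KRT14 most closely over the 6 samples were SERPINA1, CERS2 and GNA12 (Pearson r = 0.9997, 0.9997 and 0.9996). For KRT8 and KRT18 they were THOC5, CTSZ and CHMP2A (Pearson r = 0.988, 0.988 and 0.980). With 6 samples in 2 groups, the first set of values mainly describes the step between the groups.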

How the data were processed

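RNA was sequenced from 3 shLuc and 3 shWDR5 samples of MCF10DCIS.com cells. Per the labels, poly-A RNA was made into TruSeq libraries and sequenced on an Illumina HiSeq, and the submitters' processing notes name TopHat2 2.1.0, featureCounts and edgeR 3.2.2 with builds hg19 and GRCh37. The deposited counts are raw whole numbers per gene symbol, with exon blocks and gene length, 1 column per sample. Strand and multi-mapping settings are not given in the sources used here. A second deposited table holds the authors' own fold changes and p-values and was not used.

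Counts were filtered with filterByExpr (minimum count 10), scaled by TMM and tested with edgeR 4.0.16 (glmQLFit and glmQLFTest, group as the only term) in R 4.3.3, with Benjamini-Hochberg adjustment over 16117 genes. A gene was called at an adjusted p under 0.05. SE is the log2 fold change divided by the square root of F. CPM and FPKM used the TMM-scaled library sizes and, for FPKM, the deposited gene length. The test was tried on simulated counts first. Coding sequences came from GENCODE release 29 and were aligned with Biopython 1.88, and promoters came from RefSeq. Counts of replicate pairs differed by 7.11 to 18.2 times the sampling noise (chi-square per gene), so no 2 libraries were counted as 1.

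The members and lists were chosen with earlier results of these data known. Besides the 10 members and all other keratin genes called, the rule for named genes took from each list the 3 highest and 3 lowest called genes plus VIM, TP63, KLF4, KLF5 and TGFB1, with pseudogenes by their counts. Alternatives were median-ratio scaling, library totals, DESeq2 1.42.0, no filter, a replicate block, scaling without keratin genes, the study's thresholds and leaving out each library. One further marker list is not reported here.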

Additional observations from a re-analysis of the deposited data

How the results depend on the processing

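KRT5, KRT14, KRT6A, KRT6B, KRT16, KRT17 and KRT19 kept their direction and their call under all 14 alternatives, with log2 fold changes of 0.86 to 0.97, 1.21 to 1.36, 1.73 to 1.92, 0.90 to 1.04, 1.22 to 1.41, 0.88 to 0.99 and 1.78 to 1.88. KRT7 (0.26 to 0.38) lost its call under the study's thresholds alone, at 0.32, by its size. KRT8 was near 0 throughout, reversed to -0.0205 with library totals and ranged from -0.0046 to 0.083 when 1 library was left out, the negative value being without shWDR5 replicate 1. KRT18 was called lower with library totals (-0.17) and with the replicate block (-0.12, edgeR adjusted p = 0.0179), which put 1 luminal keratin, and 1 of the 10 members, in the lower calls under either setting. The causes were not tested.

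With the study's thresholds, 1274 genes were called higher and 1688 lower, and the lists fell to 1 luminal keratin higher, 4 linkers higher and 2 lower, 1 other intermediate filament gene lower, and 1 regulator higher and 3 lower, since these thresholds add a minimum fold and a minimum level. With no filter, 2 other intermediate filament genes were called higher. The median log2 fold change of the other keratins was -0.33, 0.21 with no filter and -0.62 with a mean of at least 1 CPM. Those called higher numbered 3 with a mean of at least 1 CPM, a filter added after seeing the data, and 5 to 8 with 1 library left out, the 8 without shLuc replicate 1, while the median ranged from -0.36 to 0.26, so that no direction was read from it. Summed keratin counts differed by 0.349 to 0.424 percentage points with 1 library left out.

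The replicate numbers in the titles were not used as pairs. Deviations from the group means correlated at 0.669, 0.086 and 0.264 for samples numbered 1, 2 and 3 in both groups, and shLuc replicate 2 correlated best with shWDR5 replicate 3 (0.473). With the replicate block, 4901 genes were called higher and 5511 lower, against 4291 and 4821 without it. KRT19, KRT6C and the other keratins at a few CPM are the values that depth limits most.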
